A study of Homo sapiens with 14 samples.

Results

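The genes that set the balance between division and arrest at the G1 phase of the cell cycle were followed while human pancreatic progenitors were expanded, passaged, treated with a BET inhibitor and turned into β-like cells. They were the 10 genes that encode the CIP/KIP inhibitors of cyclin-dependent kinases (CDKs), the INK4 inhibitors and the D-type cyclins. They were chosen by name, with no measured value, from the 60624 gene identifiers listed for each library. The 14 bulk RNA sequencing libraries, in 9 groups, all came from MEL1, an established line of human embryonic stem cells, which the study's methods give as the INS GFP/W reporter line, with GFP at an INS allele. Their values are in TPM, a share of a library corrected for transcript length.

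Single libraries represented undifferentiated cells on feeder cells (hPSC), definitive endoderm (DE), pancreatic progenitors made by stepwise differentiation (PP2) and β-like cells that stem cells gave without an expansion step (SC-β), all of batch 1. Batch 2 held 2 libraries each of expandable pancreatic progenitors (ePPs) at passage 9 (ePP-P9) and passage 21 (ePP-P21), and of β-like cells made from ePPs (ePP-β). The ePPs grew on feeder cells in a medium with EGF, bFGF, the TGFβ receptor inhibitor 616452 and I-BET151, an inhibitor of the BET bromodomain proteins, so both ePP groups carried that inhibitor. The study's methods also list 616452, but not I-BET151, in the media of the last steps to β-like cells. Batch 3 held 2 libraries each of pancreatic progenitors given DMSO, the solvent, or 1 μM I-BET151 for 7 days, in a medium that shared the growth factors and 616452. All groups share 1 cell line, and whether replicates were separate cultures is not stated, so p-values measure only the spread between these libraries, which may be technical.

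Progression through G1 depends on D-type cyclins, which bind CDK4 or CDK6 and start the phosphorylation of the retinoblastoma protein. INK4 proteins bind CDK4 and CDK6 and keep them from the cyclins, whereas CIP/KIP proteins bind complexes of cyclins with CDKs, chiefly those of CDK2. In the pancreas these inhibitors are known for holding endocrine cells out of the cycle, and CDKN2A (p16INK4a) is known for its rise in aging islets.

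Of the inhibitors, CDKN1A (p21Cip1), which is induced by DNA damage, lies on chromosome 6 (GRCh38, 36676460 to 36687337, plus strand). CDKN1B (p27Kip1) lies on chromosome 12 (12685498 to 12722369, plus strand), and CDKN1C (p57Kip2), an imprinted gene, on chromosome 11 (2883213 to 2885775, minus strand). CDKN2A and CDKN2B (p15INK4b), a TGFβ target, are neighbors on the minus strand of chromosome 9 (21967752 to 21995301 and 22002903 to 22009305). CDKN2C (p18INK4c) lies on chromosome 1 (50960745 to 50974634, plus strand) and CDKN2D (p19INK4d) on chromosome 19 (10566460 to 10569059, minus strand). The D-type cyclin genes are CCND1 on chromosome 11 (69641156 to 69654474, plus strand), CCND2 on chromosome 12 (4269771 to 4305353, plus strand) and CCND3 on chromosome 6 (41934934 to 42050357, minus strand).

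The RefSeq promoter table (GRCh38.p14) held 7 of the 10 genes. The 250 bases before the start site are shown for CDKN1A, CDKN1B and CDKN2B, the 3 genes of the table that passed the test between ePPs and the β-like cells made from them, one of them downwards and the others upwards. They are chr6:36678464-36678713 (plus strand), chr12:12717118-12717367 (plus strand) and chr9:22009306-22009555 (minus strand). Capitals mark GGGCGG (a GC box) and CCAAT on either strand.
CDKN1A: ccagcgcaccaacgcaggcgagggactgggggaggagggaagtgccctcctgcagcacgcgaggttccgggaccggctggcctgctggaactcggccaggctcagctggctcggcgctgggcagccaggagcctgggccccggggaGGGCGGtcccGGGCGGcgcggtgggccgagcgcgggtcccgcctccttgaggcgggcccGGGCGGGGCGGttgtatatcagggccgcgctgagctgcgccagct
CDKN1B: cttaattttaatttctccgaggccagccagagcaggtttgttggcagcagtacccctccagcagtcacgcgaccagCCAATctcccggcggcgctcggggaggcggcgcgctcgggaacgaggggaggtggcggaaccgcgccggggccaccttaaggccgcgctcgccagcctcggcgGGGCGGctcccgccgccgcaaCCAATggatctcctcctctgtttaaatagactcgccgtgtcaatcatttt
CDKN2B: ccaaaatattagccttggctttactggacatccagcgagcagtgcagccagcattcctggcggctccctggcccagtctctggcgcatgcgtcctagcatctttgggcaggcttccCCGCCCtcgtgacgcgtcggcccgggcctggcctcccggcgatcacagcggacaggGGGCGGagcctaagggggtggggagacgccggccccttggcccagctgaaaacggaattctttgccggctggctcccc
The CDKN1A window held 4 copies of GGGCGG, of which a pair overlap by 1 base, the CDKN1B window 1 and the CDKN2B window 2. CCAAT was found 2 times for CDKN1B and in neither of the other windows. Among the 35116 promoter windows of this length, 42.6% held GGGCGG and 32.0% held CCAAT. The letters CACGTG (an E-box, in 6.34% of windows) and TTTNGCGC (an E2F motif, in 1.51%) were in none of the 3 windows. A match describes the letters only.

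The labels of the groups were checked against marker genes. POU5F1 was at 3401 TPM in hPSC, SOX17 at 1140 TPM in DE, and PDX1 between 74.4 and 251 TPM in PP2, the ePPs, DMSO and I-BET151. Some markers followed the labels less closely. Among these progenitor libraries PP2 had the least NKX6-1, with 23.5 TPM beside 51.5 to 446 TPM in the others. The DE library still held 389 TPM of POU5F1 and 439 TPM of TDGF1, a marker of undifferentiated cells with 468 TPM in hPSC. CXCR4, a DE marker, reached 147 and 226 TPM in ePP-β, above its 105 TPM in DE. INS was between 10916 and 20657 TPM in ePP-β and SC-β, where GCG, the glucagon gene of α cells, was also between 13360 and 74281 TPM. Between 14982 and 17578 genes reached 1 TPM per library, and ribosomal protein genes took 9.81% to 27.9% of the listed TPM. TPM keeps no read number, so depth is unknown, and fewer cells of a type cannot be told apart from less RNA per cell.

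Some of the 10 genes overlap other annotated genes, and as the use of strand in counting is not given in the sources used here, reads of such pairs may not be told apart, which was not tested. The long noncoding gene ENSG00000264545, opposite to CDKN2A and CDKN2B and spanning both, was listed at 7.06 to 40.8 TPM. ENSG00000285901, a protein-coding model on the strand of CCND2, overlaps it by 31592 bases and was at 13.8 to 30.2 TPM, and at 23.2 TPM in DE, where CCND2 was at 0.43 TPM. CCND2, CDKN2A and CDKN2B are therefore uncertain. The value of CDKN2A also pools its INK4a and ARF transcripts. GPR19, opposite to CDKN1B, was at 19.8 TPM in hPSC and at most 2.37 TPM elsewhere. LTO1, opposite to the end of CCND1, was at 5.09 to 20.3 TPM.

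**Figure D1:**
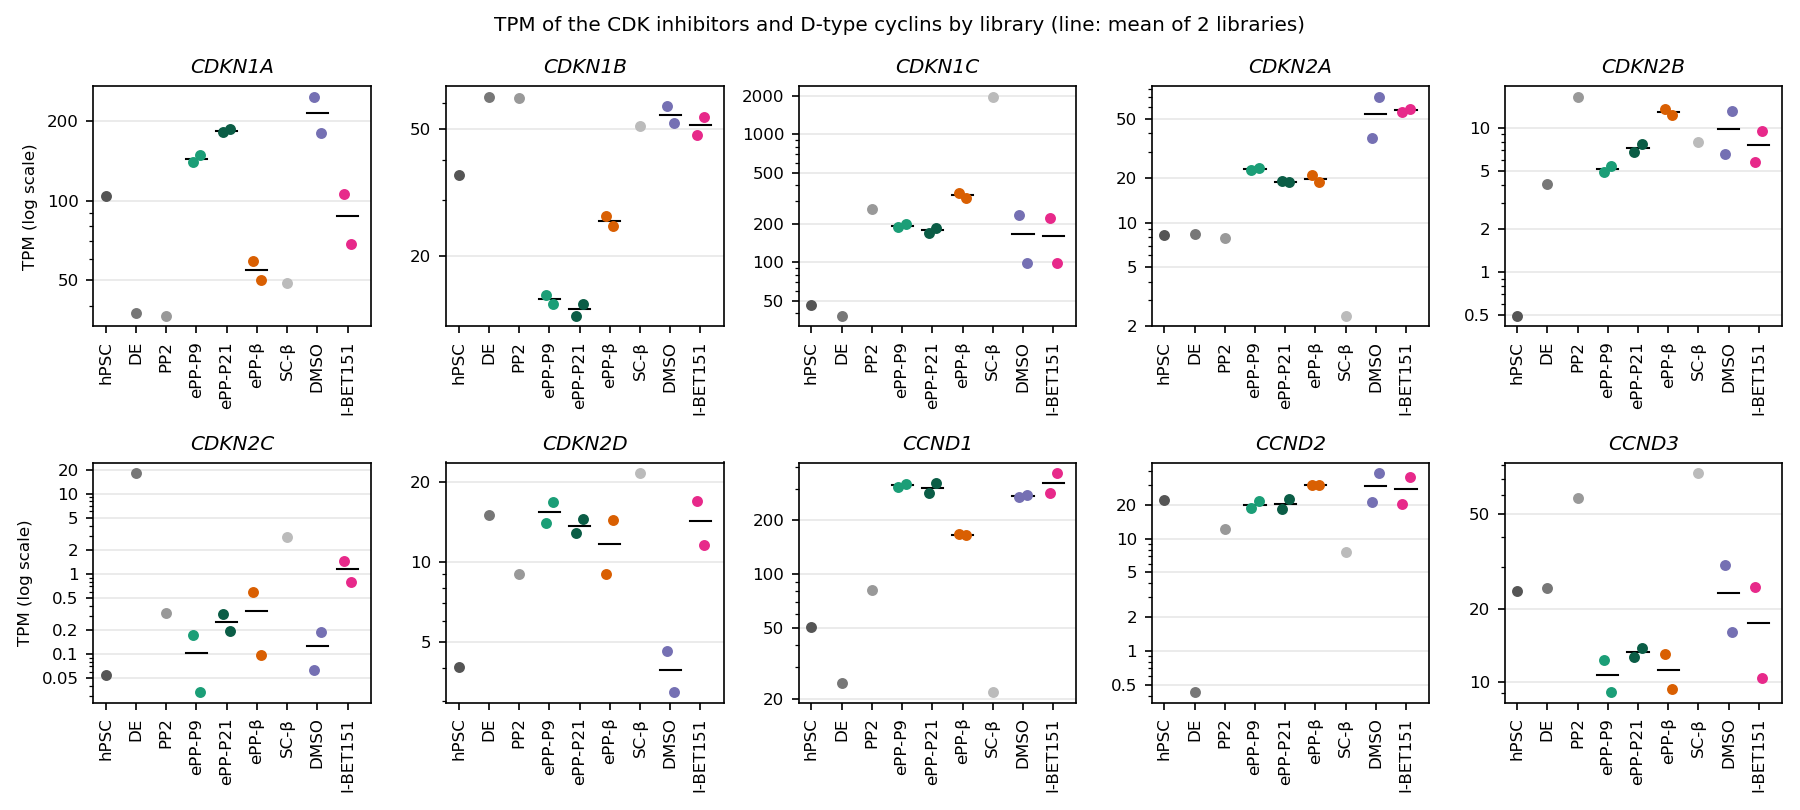
TPM on a log scale of each of the 10 genes in each library, by group, where points are libraries and black lines are means of 2 libraries. CDKN1A and CCND1 sit high and CDKN1B and CCND3 low in all 4 ePP libraries. CDKN1A and CCND1 are also high with DMSO, and CDKN1C is highest in the SC-β library.

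The question of which inhibitors and cyclins differ between expanded progenitors and progenitors that were never expanded was addressed by ePP against PP2. CDKN1A, which stops the cycle after stress, was higher in every ePP library, and so was CCND1, a driver of G1. CDKN1A was at 36.7 TPM in PP2, whereas ePP-P9 had 140.0 and 148 TPM and ePP-P21 had 182 and 186 TPM. CCND1 was at 81.1 TPM in PP2, whereas ePP-P9 had 307 and 321 TPM and ePP-P21 had 284 and 323 TPM. The inhibitor and the cyclin thus differed from PP2 in the same direction, by 2.12 and 1.91 on the log2(TPM + 1) scale. The DMSO libraries were also above PP2, with 247 and 181 TPM of CDKN1A and 270 and 276 TPM of CCND1. So were the I-BET151 libraries, with 105 and 68.7 TPM of CDKN1A and 284 and 366 TPM of CCND1.

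CDKN1B, which holds cells in quiescence, and CCND3 went the other way. CDKN1B was at 15.1, 14.2, 13.0 and 14.2 TPM in the 4 ePP libraries and at 62.1 TPM in PP2 (difference -2.06). CCND3 was at 12.3, 9.04, 12.7 and 13.8 TPM and at 58.3 TPM (difference -2.21). All 4 ePP libraries lay below PP2 for both genes. CDKN1B was at 58.7 and 51.9 TPM with DMSO and at 47.9 and 54.5 TPM with I-BET151, nearer to PP2 than to the ePPs. CCND3 was at 30.5 and 16.1 TPM with DMSO and at 24.7 and 10.4 TPM with I-BET151.

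CDKN2A was higher in the 4 ePP libraries (18.7 to 23.3 TPM) than in PP2 (7.81 TPM), a difference of 1.31. CDKN2B was lower (4.96 to 7.74 against 16.4 TPM), a difference of -1.28. These neighbors on chromosome 9 thus differed in opposite directions. CDKN2A was above every ePP library with DMSO (37.1 and 70.6 TPM) and with I-BET151 (55.8 and 58.5 TPM). CDKN2B was at 6.55 and 13.1 TPM with DMSO and at 5.77 and 9.53 TPM with I-BET151. CDKN1C, CDKN2D and CCND2 stayed within 2-fold of PP2, with differences of -0.49, 0.63 and 0.67. CDKN2C was under 0.33 TPM in PP2 and under 0.32 TPM in every ePP library.

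Of the 9 genes with at least 1 TPM, 6 were past 2-fold between ePP and PP2, beside 33.4% of 19170 genes. The median over all genes was -0.20. PP2 is 1 library of another batch, so this difference has no test, and batch and group cannot be told apart. The 8 fibroblast or feeder markers summed to 1527 TPM in PP2, where all 8 reached 1 TPM, and to 58.6 to 94.0 TPM in the ePP libraries, where 5 of 8 did in every library. By the study's methods the hPSCs and the ePPs grew on feeder cells. The stepwise differentiation, which gave PP2 and SC-β, started from aggregates formed in low-attachment plates on a shaker. Which cells gave the RNA of the fibroblast or feeder markers was not tested. The 4 liver markers summed to 3450 TPM in PP2 and 163 to 191 TPM in the ePPs. The part of these markers in the differences was not tested.

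The passages tell whether these levels drifted during expansion. No gene was called between ePP-P21 and ePP-P9, where called means an adjusted p under 0.05 in limma's moderated test and a change past 2-fold. That is 0 of 9 tested genes, beside 1.13% of 15822 genes, and 1 of 9 had an unadjusted p under 0.05, beside 23.0% of genes. CDKN1A was 184 ± 2.88 TPM (SD, n = 2) at passage 21 and 144 ± 5.87 TPM (n = 2) at passage 9. Its log2 fold change was 0.35 (SE 0.08, 95% interval 0.17 to 0.54, limma adjusted p = 0.08), which did not pass the threshold although the groups do not overlap.

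The groups also did not overlap for CDKN1C, CDKN2A, CDKN2B and CCND3, so 5 of 9 genes were separated, beside 54.4% of all genes. CDKN2A was at 22.8 and 23.3 TPM at passage 9 and at 19.2 and 18.7 TPM at passage 21 (log2 fold change -0.27, 95% interval -0.55 to 0.01). CDKN2B went from 4.96 and 5.47 TPM to 6.81 and 7.74 TPM, a log2 fold change of 0.41 (-0.03 to 0.86). No interval among the 9 genes reached a 2-fold change in either direction.

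CCND1 had a log2 fold change of -0.05 (95% interval -0.27 to 0.17) with passage and CDKN1B of -0.10 (-0.44 to 0.24). CDKN1C was at -0.12 (-0.32 to 0.08), CDKN2D at -0.15 (-0.54 to 0.24) and CCND3 at 0.30 (-0.17 to 0.77). CCND2 was at 0.02 (-0.36 to 0.40), a value that turned to -0.18 when libraries were centered on their medians, to -0.14 with quantile normalization and to -0.02 when TPM were rescaled over protein-coding genes other than ribosomal protein genes. Median centering moved the median of all genes from 0.13 to -0.07, and CDKN1A from 0.35 to 0.15.

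Because CDKN1A is induced by DNA damage, a list of 15 other damage response genes was set beside it. At passage 21 all 15 had a log2 fold change above 0, beside 10776 of 15822 genes, with a median of 0.50, beside 0.13 over all genes. The groups did not overlap for 13 of the 15, beside 54.4% of genes, and 10 had an unadjusted p under 0.05, beside 23.0%. Only MDM2, a ubiquitin ligase, had an adjusted p under 0.05, beside 1.95% of all genes, and none was called. MDM2 was at 31.8 and 36.1 TPM at passage 9 and at 57.2 and 70.3 TPM at passage 21 (log2 fold change 0.89, SE 0.14, limma adjusted p = 0.0472). ZMAT3, an RNA-binding protein, was next in size at 0.71 (limma adjusted p = 0.0626). With libraries centered on their medians or with quantile normalization, 13 of the 15 were above 0, and the adjusted p of MDM2 was 0.0648 and 0.065. Over all alternatives that adjusted p ran from 0.0166 to 0.506.

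In the G1/S list, 25 genes of the CDKs, their other cyclins, retinoblastoma proteins and E2F factors, none was called with passage and 5 had an unadjusted p under 0.05. Its largest values were 0.70 for E2F3 (limma adjusted p = 0.398) and 0.64 for RBL2, a relative of RB1 (limma adjusted p = 0.0754). Its median was -0.05. None of the 11 proliferation genes was called, 1 had an unadjusted p under 0.05, and the median was -0.09. PLK1, a mitotic kinase, was lowest at -0.68 (limma adjusted p = 0.0594) and MCM2, a replication licensing factor, followed at -0.31.

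**Figure D2:**
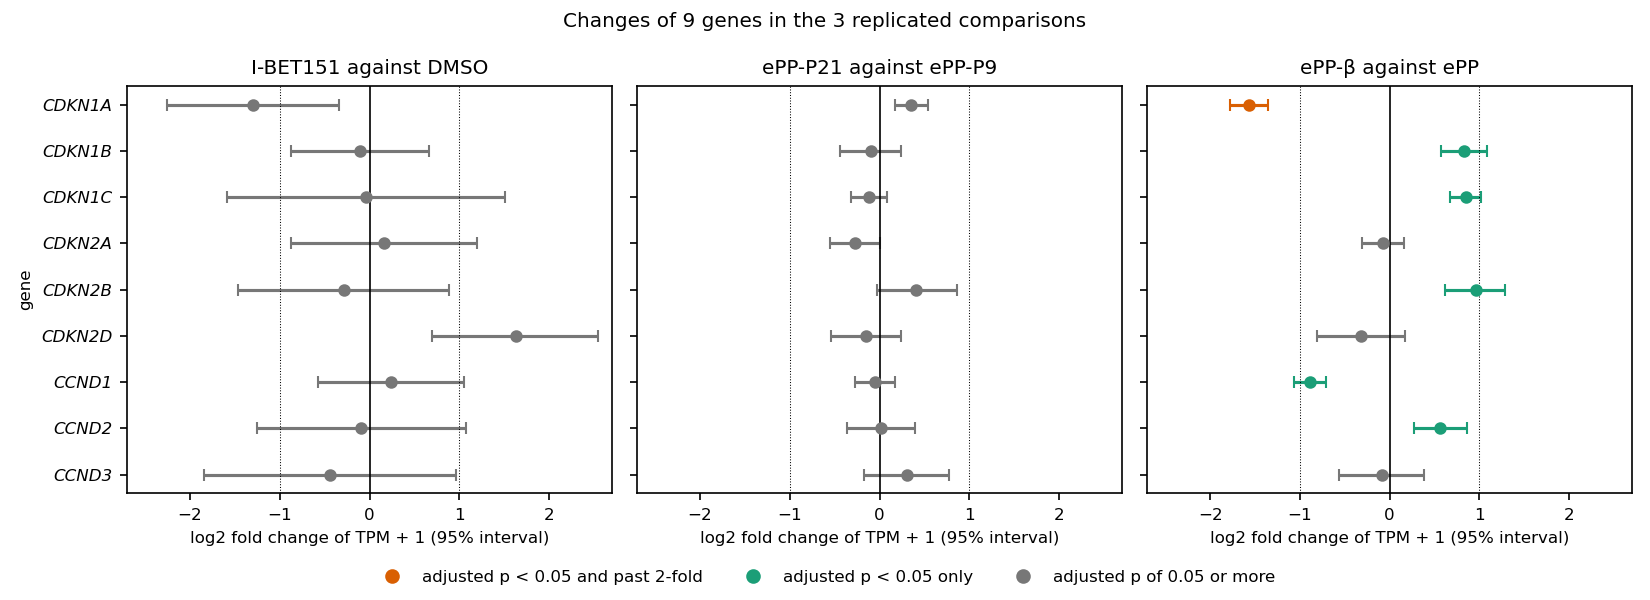
Log2 fold change of TPM + 1 with its 95% interval for the 9 tested genes, in the 3 comparisons with replicates, where dotted lines mark 2-fold. One gene, CDKN1A in ePP-β against ePP, is past 2-fold with an adjusted p under 0.05.

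I-BET151 against DMSO addressed what the inhibitor does to these genes in progenitors within 7 days. CDKN1A was lower and CDKN2D, the INK4 protein p19INK4d, was higher in both treated libraries, but neither passed the test. CDKN1A was at 247 and 181 TPM with DMSO and at 105 and 68.7 TPM with I-BET151. The log2 fold change was -1.30 (SE 0.38, 95% interval -2.26 to -0.34, limma adjusted p = 0.211). CDKN2D was at 4.62 and 3.24 TPM with DMSO and at 17.1 and 11.6 TPM with I-BET151, a log2 fold change of 1.63 (SE 0.36, 0.70 to 2.55, limma adjusted p = 0.14). The treated and control libraries do not overlap for either gene.

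With limma, 0 of 9 tested genes were called, beside 0.21% of 16687 genes. At an unadjusted p under 0.05 there were 2 of 9, CDKN1A and CDKN2D, beside 15.2% of genes. The groups did not overlap for 3 of 9, beside 46.8% of genes. The third was CCND1, at 270.2 and 276 TPM with DMSO and at 284 and 366 TPM with I-BET151, a log2 fold change of 0.24 (95% interval -0.57 to 1.05). With each replicate left out in turn, the limma adjusted p ran from 0.0999 to 0.845 for CDKN1A and from 0.0282 to 0.494 for CDKN2D, which was called only without I-BET151 replicate 2 (1.89). With all 10 replicated libraries sharing 1 estimate of the spread, CDKN1A and CDKN2D were both called (limma adjusted p = 0.0133 and 0.013), beside 8.72% of genes.

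Among the other genes, replicates 1 and 2 often lay far apart. For CDKN1C, CDKN2B, CCND2 and CCND3 they did so in the same direction in both groups, which the fit used here counts as spread. For CDKN1A and CDKN2D too, replicate 1 was above replicate 2 in both groups. The fit with a replicate block is given below with the processing. CDKN1C was at 234 and 98.7 TPM with DMSO and at 222 and 98.5 TPM with I-BET151, so replicate 1 was more than 2-fold higher than replicate 2 in both groups. Its log2 fold change was -0.04 (95% interval -1.59 to 1.51). CCND2 was at 21.3 and 38.1 TPM and at 20.3 and 35.4 TPM (-0.09, -1.25 to 1.08), and CCND3 at 30.5 and 16.1 TPM and at 24.7 and 10.4 TPM (-0.44, -1.84 to 0.96). Ribosomal protein genes took 20.4% (DMSO) and 16.8% (I-BET151) of the listed TPM in replicate 1, and 27.9% and 27.8% in replicate 2.

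CDKN1B was at 58.7 and 51.9 TPM with DMSO and 47.9 and 54.5 TPM with I-BET151 (-0.11, 95% interval -0.88 to 0.66). CDKN2A was at 37.1 and 70.6 TPM and at 55.8 and 58.5 TPM (0.16, -0.88 to 1.20), and CDKN2B at 6.55 and 13.1 TPM and at 5.77 and 9.53 TPM (-0.29, -1.46 to 0.88). These intervals leave room for changes near or past 2-fold. CDKN2C, below the filter of 1 TPM in 2 libraries, was at 0.0625 and 0.186 TPM with DMSO and at 1.47 and 0.802 TPM with I-BET151.

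Markers of other lineages moved with the treatment. The 4 liver markers summed to 8514 and 9799 TPM with DMSO and to 984 and 2330 TPM with I-BET151, with all 4 above 1 TPM in every library. The 4 gut markers summed to 338 to 649 TPM and to 126 to 186 TPM, with 3 of 4 above 1 TPM in each group. The 8 fibroblast or feeder markers summed to 125 to 247 TPM and to 53.3 to 89.1 TPM, and the 4 pancreatic progenitor markers to 254 to 339 TPM and to 541 to 969 TPM. Their part in the values of CDKN1A and CDKN2D was not tested.

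In the G1/S list, 0 of 25 genes were called by limma with I-BET151, 1 had an unadjusted p under 0.05 and the median was 0.32, beside 0.16 over all genes. The largest values were 1.55 for CCNE2, a cyclin of CDK2 (limma adjusted p = 0.358), and 1.43 for E2F1, a factor that drives S phase genes (limma adjusted p = 0.154). E2F1 was at 14.9 and 15.2 TPM with DMSO and at 50.8 and 34.8 TPM with I-BET151. None of 11 proliferation genes was called, and PCNA, the replication clamp, and MCM2 had the largest values, 1.28 and 0.83. Of the 15 damage response genes, none was called and 10 were above 0, with a median of 0.06. Their values ran from -1.24 to 1.30. With median centering or quantile normalization 7 of the 15 were above 0. The part of a damage response in the lower values of CDKN1A was not tested.

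The Polycomb list, 10 genes of the complexes known to silence the CDKN2A locus, had none called with I-BET151. RING1, a ubiquitin ligase of the first complex, and EZH2, the methyltransferase of the second, had the largest values, 0.98 and 0.93 (limma adjusted p = 0.225 and 0.242). Among 11 regulators of the inhibitors none was called. KLF4, an activator of CDKN1A, was at 17.3 and 15.1 TPM with DMSO and at 2.82 and 3.62 TPM with I-BET151, a log2 fold change of -2.03 (limma adjusted p = 0.0829). HES1, a Notch target that represses CDKN1B and CDKN1C, was at 0.97 (limma adjusted p = 0.313). With passage none of either list was called, with values of 0.50 for RING1, 0.43 for ZBTB17, a partner of MYC in repression, and -0.36 for KLF4.

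Exit from expansion was followed in ePP-β against ePP, the mean of both passages. The labels do not give the passage of the ePPs that were made into ePP-β, so neither ePP group is known to be their source. CDKN1A and CCND1 fell, and CDKN1B, CDKN1C, CDKN2B and CCND2 rose, at an adjusted p under 0.05. These 6 of 9 tested genes stand beside 57.4% of all genes, a share near that of the 9. With all 10 replicated libraries in a single fit, the adjusted p (limma) was 0.129 for CDKN1C and 0.163 for CCND2, so neither passed the threshold there. CDKN1A was at 59.1 and 50.0 TPM in ePP-β, against 140.0 to 186 TPM in the 4 ePP libraries. Its log2 fold change was -1.57 (SE 0.09, 95% interval -1.78 to -1.36, limma adjusted p = 4.41e-05). It was the only one of 9 tested genes called, beside 27.8% of 18076 genes called in either direction and 9.86% called lower.

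The groups did not overlap for the 6 genes with an adjusted p under 0.05, beside 63.8% of genes. CCND1 was at 167 and 165 TPM in ePP-β against 284 to 323 TPM in ePPs, a log2 fold change of -0.89 (SE 0.07, limma adjusted p = 0.000188). CDKN1B was at 26.7 and 24.9 TPM against 13.0 to 15.1 TPM (0.83, SE 0.10, limma adjusted p = 0.000983). CDKN1C was at 349 and 319 TPM against 171 to 198 TPM (0.85, SE 0.07, limma adjusted p = 0.000198). In each of these genes the 2 ePP-β libraries lay on one side of all 4 ePP libraries.

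CDKN2B was at 13.5 and 12.4 TPM in ePP-β against 4.96 to 7.74 TPM (0.96, SE 0.14, limma adjusted p = 0.00169), and its value passed 1, so that it was called, with pseudocounts of 0.1 and 0.01 (1.06 and 1.07). CCND2 was at 30.2 and 30.3 TPM against 18.4 to 22.4 TPM (0.56, SE 0.12, limma adjusted p = 0.0084). The test did not separate CDKN2A (-0.07, 95% interval -0.31 to 0.16), CDKN2D (-0.32, -0.81 to 0.17) or CCND3 (-0.09, -0.56 to 0.38). These 3 intervals stay short of 2-fold.

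For CDKN2D the ePP-β libraries had 9.05 and 14.4 TPM and the ePPs 12.9 to 16.8 TPM, and CCND3 at 13.1 and 9.29 TPM and at 9.04 to 13.8 TPM. CDKN2A was at 20.9 and 18.8 TPM, within the range of the ePPs. The β-cell markers marked the new state, since all 5 were above 1 TPM in ePP-β and summed to 27710 and 32944 TPM, against 3.62 to 6.97 TPM in ePPs. INS and GCG together took 2.74% and 3.26% of the listed TPM. The 4 liver markers, of which TTR is also a gene of islet endocrine cells, summed to 14714 and 17372 TPM, and the part of any marker in the values of the inhibitors was not tested.

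The other cell cycle genes were mostly lower in ePP-β. Of the 25 genes in the G1/S list, 9 were called lower and 1 higher, beside 9.86% and 17.9% of all genes, with a median of -0.79, beside -0.03 over all genes. Those lower were CDK2, its cyclins CCNE1, CCNE2 and CCNA2, the factors E2F1 and E2F7, the phosphatase CDC25A, and SKP2 and CKS1B, which target CDKN1B protein for degradation. SKP2 had the largest change, -2.08 (SE 0.09, limma adjusted p = 1.92e-05), and CKS1B was at -1.44 (limma adjusted p = 3.01e-05). CDK6, a partner of the D-type cyclins, was the 1 called higher, at 5.30 and 5.41 TPM against 1.08 to 1.82 TPM (1.35, limma adjusted p = 0.000647). CDK4, the other partner, was at 188 and 160 TPM against 291 to 314 TPM (-0.79, limma adjusted p = 0.000482). RB1 was at 30.5 and 30.9 TPM against 27.3 to 34.8 TPM, a log2 fold change of 0.05 (95% interval -0.20 to 0.29).

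All 11 proliferation genes (MKI67, TOP2A, CDK1, CCNB1, CCNB2, PLK1, AURKB, BUB1, CENPF, PCNA and MCM2) were called lower, beside 9.86% of all genes called lower and 17.9% called higher, with a median of -1.53, and AURKB, a mitotic kinase, had the largest change, -2.27. MKI67 was at 4.36 and 3.84 TPM in ePP-β against 12.5 to 13.8 TPM in ePPs (-1.49, limma adjusted p = 0.000214). Of the 15 damage response genes, 7 were called lower and 1 higher, beside the same shares, with a median of -0.80. Their values ran from -2.17, for TNFRSF10B, a death receptor, to 1.01, and MDM2 was at -1.74 (limma adjusted p = 9.44e-05).

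Of the Polycomb list, EZH2 (-1.16, limma adjusted p = 0.000478) and CBX2 (-1.63, limma adjusted p = 2.69e-05) were called lower among the 9 tested genes, beside 9.86% of all genes. BMI1, the member best known for repressing CDKN2A, was at 47.1 and 51.8 TPM against 38.7 to 49.6 TPM (0.24, 95% interval -0.05 to 0.53). Of the 11 regulators, 2 were called lower and 1 higher, beside 9.86% and 17.9% of all genes, or 27.8% in either direction. MYC, a repressor of CDKN1A and CDKN2B, was called lower, at 17.6 and 18.0 TPM against 102 to 152 TPM (-2.85, limma adjusted p = 4.73e-05). MEN1, which maintains CDKN1B and CDKN2C transcription in endocrine cells, was also called lower (-1.33, limma adjusted p = 0.00376). FOXO1, an activator of CDKN1B, was called higher (1.20, limma adjusted p = 0.000879).

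**Figure D3:**
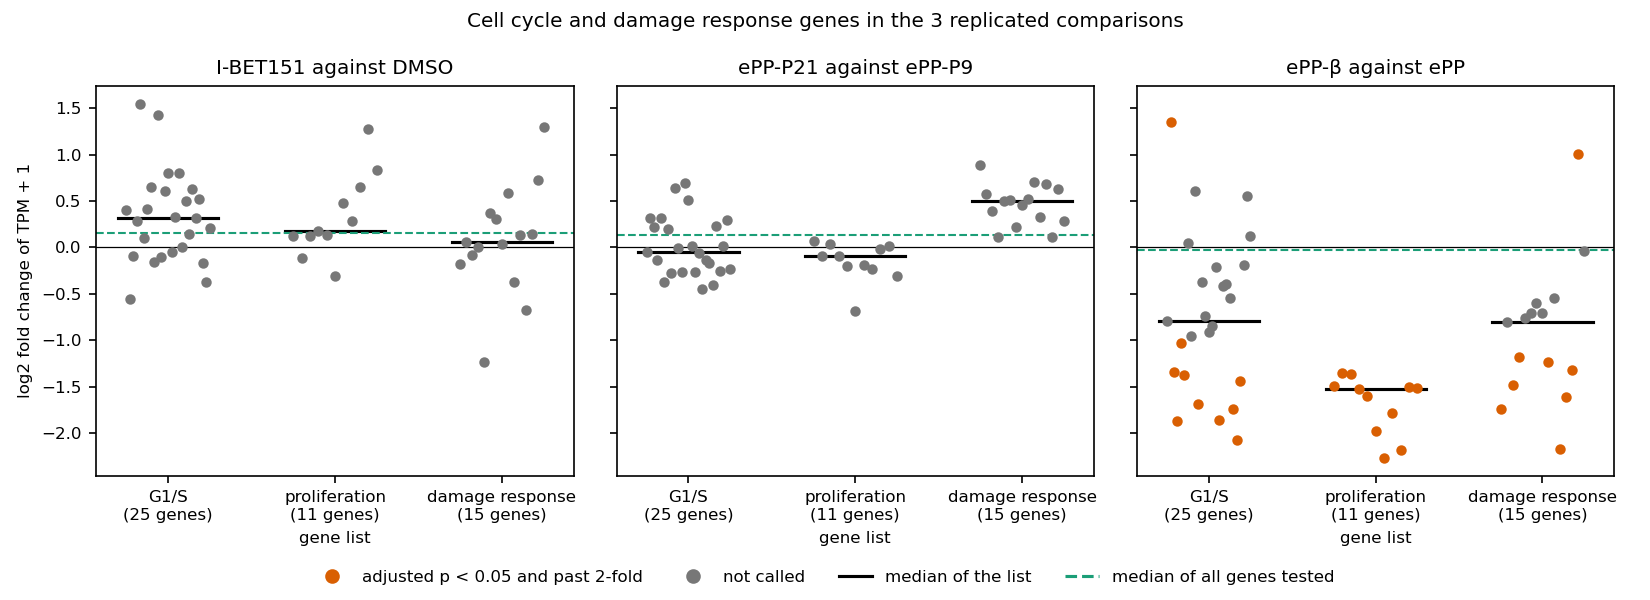
Log2 fold change of TPM + 1 for each gene of the G1/S, proliferation and damage response lists in the 3 comparisons with replicates, with the median of each list as a black line and of all genes as a dashed line. All 15 damage response genes lie above 0 at passage 21, beside 10776 of 15822 tested genes. In ePP-β all 11 proliferation genes are called lower, beside 9.86% of tested genes.

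The β-like cells from both routes were set side by side to see whether they share these levels. SC-β had 1956 TPM of CDKN1C where ePP-β had 349 and 319 TPM, a difference of -2.55. For CCND1 the SC-β library had 21.8 TPM and the ePP-β libraries 167 and 165 TPM (2.87). CCND3 was at 13.1 and 9.29 TPM and at 73.9 TPM (-2.64). CDKN2A was at 20.9 and 18.8 TPM and at 2.36 TPM (2.63), and CCND2 at 30.2 and 30.3 TPM and at 7.59 TPM (1.86).

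CDKN1A was at 59.1 and 50.0 TPM in ePP-β, close to the 48.7 TPM of SC-β (0.16). CDKN1B, CDKN2B and CDKN2D were within 2-fold, at -0.95, 0.63 and -0.86. For CDKN2C they had 0.591, 0.096 and 2.89 TPM (-1.56 for ePP-β less SC-β). In all, 6 of 10 genes were past 2-fold, beside 35.9% of 19533 genes. SC-β is 1 library of another batch, and batch and group cannot be told apart. The 8 fibroblast or feeder markers, all above 1 TPM in SC-β, summed there to 2770 TPM and in ePP-β to 43.5 and 55.2 TPM. INS and GCG took 10.1% of the listed TPM in SC-β. Their part was not tested.

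The stepwise route without expansion was followed by single libraries of 1 batch, with no replicate check. From hPSC to DE, CDKN2C was higher, at 0.0551 and then 17.9 TPM (4.16), and CCND2 was lower, at 22.0 and then 0.43 TPM (-4.01). CDKN1A was at 104 and then 37.3 TPM (-1.46), CDKN2B at 0.498 and 4.05 TPM (1.75), CDKN2D at 4.02 and 15.1 TPM (1.68) and CCND1 at 50.4 and 24.4 TPM (-1.02). Thus 6 of 10 genes were past 2-fold, beside 26.9% of genes. DE stood out as the stage with CDKN2C above 3 TPM and CCND2 under 1 TPM.

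From DE to PP2, CDKN2C returned to 0.328 TPM (-3.83) and CCND2 to 12.3 TPM (3.21). CDKN1C was at 38.5 TPM and then 259 TPM (2.72), and CDKN2B, CCND1 and CCND3 were higher by 1.79, 1.69 and 1.21. Again 6 of 10 genes were past 2-fold, beside 37.0% of genes. From PP2 to SC-β, CDKN1C was at 259 and then 1956 TPM (2.91), CCND1 at 81.1 and 21.8 TPM (-1.85), CDKN2A at 7.81 and 2.36 TPM (-1.39), and CDKN2C and CDKN2D were higher by 1.55 and 1.17. This made 5 of 10 genes, beside 34.8% of genes.

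On either route to β-like cells CDKN1C was higher and CCND1 lower than in the progenitors. CDKN2D was higher at SC-β than at PP2, but in ePP-β its interval against the ePPs covered 0. CDKN1A was at 36.7 TPM in PP2 and 48.7 TPM in SC-β (0.40), whereas it fell from the ePPs to ePP-β. The difference between the routes was not tested, since PP2 and SC-β are single libraries.

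TPM are corrected for length, so the members of a class can be compared as shares of their summed TPM. CCND1 made up 89.9% to 91.3% of the D-type cyclin transcripts in the 4 ePP libraries, 79.4% and 80.6% in ePP-β and 83.6% to 88.9% in the DMSO and I-BET151 libraries. It made up 53.5% in PP2 and 21.1% in SC-β, where CCND3 made up 71.6%. The summed D-type cyclins were 341 ± 19.3 TPM (SD, n = 4) in ePPs and 207 ± 4.26 TPM (n = 2) in ePP-β. The exact two-sided permutation test gave p = 0.133 for this difference and for the share of CCND1, the smallest p that 2 against 4 libraries allow.

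Among CIP/KIP transcripts the share of CDKN1C was 51.1% ± 4.41 (SD, n = 4) in ePPs and 80.6% ± 0.516 (n = 2) in ePP-β, and 95.2% in SC-β. The share of CDKN1A was 45.0% ± 4.73 in ePPs and 13.1% ± 0.637 in ePP-β (exact permutation p = 0.133 for each, n = 4 and 2). Between passages the share of CDKN1A was 41.0% ± 0.283 (n = 2) at passage 9 and 49.1% ± 0.902 (n = 2) at passage 21. That of CDKN1C was 54.9% ± 0.0529 (n = 2) and 47.3% ± 0.804 (n = 2). The SDs with n = 4 pool both passages and so hold this difference, and the test treats these libraries as 1 group. With DMSO the share of CDKN1A was 50.2% ± 6.24 (n = 2) and with I-BET151 29.6% ± 2.04 (n = 2). Neither 2 against 2 comparison can go below an exact permutation p of 0.333, which both gave. Within the INK4 class CDKN2A made up 54.4% of TPM or less in the ePPs and 69.7% to 81.0% in the DMSO and I-BET151 libraries.

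**Figure D4:**
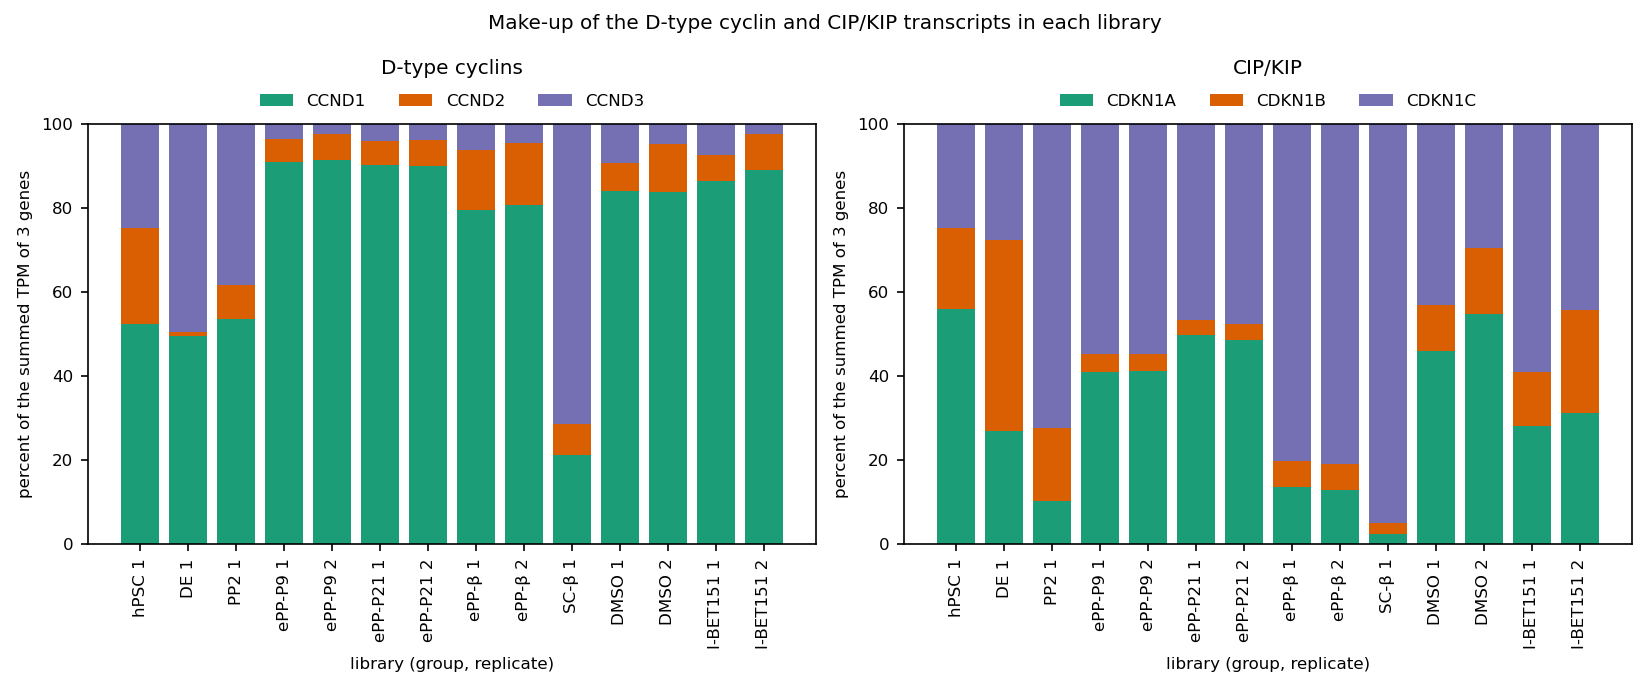
Share of each gene in the summed TPM of the D-type cyclins and of the CIP/KIP inhibitors, in percent, with 1 bar for each library. CCND1 makes up 89.9% or more of the D-type cyclins in the ePP libraries and 21.1% in SC-β, and CDKN1C makes up 80.3% and 81.0% of the CIP/KIP transcripts in ePP-β and 95.2% in SC-β.

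The ratio of CCND1 to CDKN1A within a library is free of the scaling between libraries. It was 2.19 and 2.16 in ePP-P9, 1.56 and 1.74 in ePP-P21, and 2.83 and 3.29 in ePP-β. It was 1.09 and 1.52 with DMSO and 2.69 and 5.33 with I-BET151. PP2 stood at 2.21, and hPSC, DE and SC-β were the libraries with more CDKN1A than CCND1, at 0.483, 0.654 and 0.448. Thus both passage 21 libraries were below both passage 9 libraries, and both treated libraries above both controls.

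**Figure D5:**
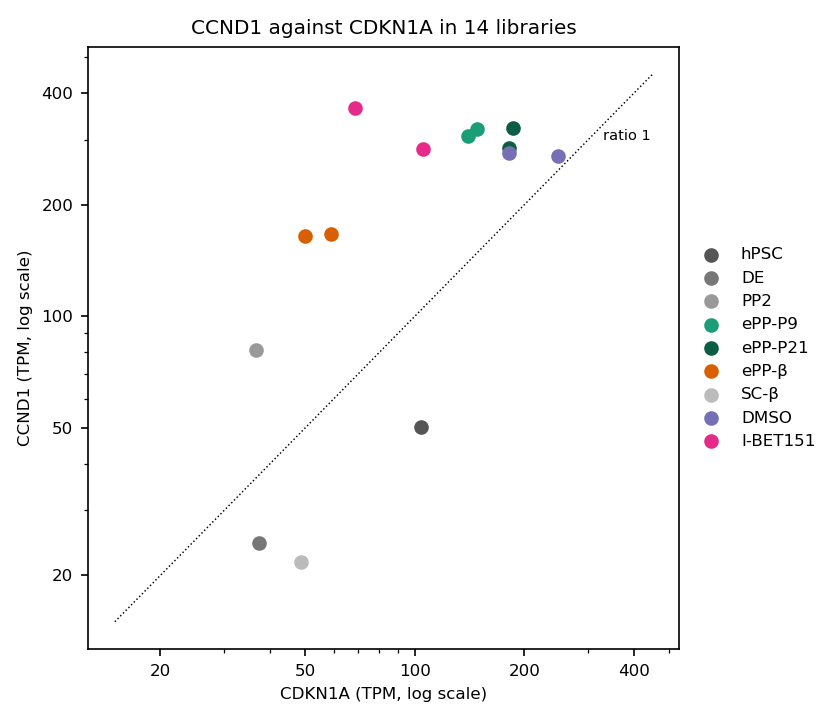
CCND1 against CDKN1A in TPM, both on log scales, with 1 point for each library, colored by group, and a dotted line at a ratio of 1. The hPSC, DE and SC-β libraries lie below the line, and the I-BET151 libraries lie farther above it than the DMSO libraries.

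The order of the levels over the 9 groups differed among the genes. CDKN1A was highest in DMSO and ePP-P21, which overlap, then in ePP-P9, then in hPSC and I-BET151, which overlap, and lowest in PP2. CDKN1C ran from SC-β down to ePP-β, PP2 and the ePPs, with DMSO and I-BET151 spread across the range of the ePPs, and was lowest in DE. CCND1 was highest in I-BET151, ePP-P9, ePP-P21 and DMSO, whose neighbors in this order overlap except the last pair, and lowest in SC-β. CCND3 had the opposite extreme, highest in SC-β and PP2 and lowest in ePP-P9, whose libraries overlap those of ePP-β.

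The genes most like each member were sought among 13451 protein-coding genes by Pearson's r of mean log2(TPM + 1) over the 9 groups, which share batches and library make-up. For CDKN1A these were CMBL (0.977), ATP1B3 (0.938) and GMDS (0.925). For CCND1 they were NIPAL1 (0.977), NFIL3 (0.976) and GMNN, which encodes geminin, an inhibitor of replication licensing (0.970). For CDKN1C they were PSMF1 (0.969), CBX6 (0.968) and SLC29A4 (0.962), and for CCND3 FAM3A (0.980), DVL1 (0.975) and CNTFR (0.975).

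CDKN1B was followed most closely by KRT10 (0.971), CDKN2A by THBS4 (0.953), CDKN2B by SCD5 (0.974), CDKN2C by JAKMIP1 (0.955) and CCND2 by IQGAP2 (0.961). These values are descriptions of 9 points each. They are among the highest of 13451 genes for each member, so the choice itself favors high values.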

How the data were processed

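Libraries were made from total RNA with a NEBNext Ultra kit and sequenced as paired ends, and per the labels and methods the reads were aligned by the authors to hg38 with HISAT2 2.1.0 and summarized per gene with StringTie. The deposited values are TPM per library, corrected for length and library total by the authors. Which annotation release was used, and whether counting used strand, is not given in the sources used here. Of the deposited gene identifiers, 60370 of 60624 matched GENCODE release 44, from which coordinates were taken. All 37 mitochondrial genes are listed at 0 in every library.

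Values were transformed to log2(TPM + 1), which understates changes of low genes. Genes with at least 1 TPM in 2 libraries of a fit were tested with limma 3.58.1 in R 4.3.3 (trended moderated test, two-sided, Benjamini-Hochberg adjustment over all tested genes), with libraries of 1 batch in each fit, and called at an adjusted p under 0.05 and a log2 fold change past 1. TPM are not counts, so no count model was used. Rose and fell are written of genes with an adjusted p under 0.05. Differences that involve a single library were not tested. Shares of a class were compared with exact permutation tests (scipy 1.17.1). The fits were also run on simulated data, with large planted changes in well-expressed genes and a capped spread. Those runs therefore cannot speak for smaller changes or a wide spread, as with I-BET151.

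All 10 genes are named in ePP against PP2, I-BET151 against DMSO and ePP-β against SC-β. CDKN2C, below the filter, is not named with passage or in ePP-β against ePP. For the steps of the route without expansion, chiefly the genes past 2-fold are named. From each list, genes are named where called, or otherwise the 2 with the largest change, and BMI1, RB1 and CDK4 were added after their values were seen. Some genes that this rule names are not reported here. The genes and lists were chosen with earlier results of these data known. Alternatives covered the pseudocount, filter, scaling, spread, replicate block and each replicate left out, and those for list genes were chosen after seeing the data.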

Additional observations from a re-analysis of the deposited data

How the results depend on the processing

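Depth is unknown, and with 2 libraries a group the intervals are wide, above all for I-BET151. Fits with 1 library left in a group assume that it varies like the others. With I-BET151, 0 of the 10 genes were called in the report's fit, but 2, CDKN1A and CDKN2D, with the replicate block (adjusted p = 0.0102 and 0.012, beside 13.7% of all genes) and 2 with all 10 replicated libraries in a single fit, and 0 to 1 with a replicate left out. Of the G1/S list 0 were called, against 2 (CCNE2 and E2F1) with the replicate block, 1 in the fit of 10 libraries and 0 to 1 with a replicate left out. The block is not a paired design by the labels: differences between replicates 1 and 2 correlated across genes at 0.675 between DMSO and I-BET151, and at -0.00933, 0.0323 and 0.0424 for the pairs of ePP-P9 with ePP-P21, ePP-P9 with ePP-β and ePP-P21 with ePP-β. Over all genes the block moved the calls from 1 higher and 34 lower to 828 and 1466 with I-BET151, and from 169 and 9 to 64 and 2 with passage.

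In ePP-β, 1 of the 10 genes was called, against 6 at an adjusted p alone, 2 with a pseudocount of 0.1, 2 with 0.01, 2 with median centering (where CCND1 reached -1.03) and 1 to 2 with a replicate left out (CDKN2B at 1.02 without ePP-β replicate 2). Of the G1/S list 10 were called, against 17 at an adjusted p alone. Calls over all genes were 3237 higher and 1783 lower, against 2924 and 2377 with median centering and 2592 and 2866 with quantile normalization. With passage they were 169 and 9, against 0 and 0, 10 and 3, and, over protein-coding genes without ribosomal protein genes, 142 and 17. With I-BET151 they were 1 and 119, 3 and 135, and 7 and 249 under these 3 scalings.

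Some directions turned with a replicate left out. With I-BET151 the log2 fold change ran from -0.66 to 0.58 for CDKN1C, -0.30 to 0.61 for CDKN2A, -0.74 to 0.16 for CDKN2B, -0.49 to 0.32 for CCND2 and -1.03 to 0.15 for CCND3. With passage it ran from -0.14 to 0.04 for CCND1 and -0.11 to 0.16 for CCND2, which also turned with median centering (-0.18), quantile normalization (-0.14) and rescaling over protein-coding genes without ribosomal protein genes (-0.02). In ePP-β it ran from -0.32 to 0.13 for CCND3. The cause was not tested. The differences with single libraries kept 6 to 7 genes past 2-fold for ePP against PP2, 6 to 8 for ePP-β against SC-β, and 5 to 6 for each step of the stepwise route.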

Other observations

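CDKN2B is a target of TGFβ signals, which 616452 blocks, and 5 other TGFβ targets were read beside it. By the study's methods the media of the last steps to β-like cells also held 616452, as did that of the ePPs. SMAD7, the feedback inhibitor of the pathway, was called lower in ePP-β than in ePPs (-2.41, limma adjusted p = 0.000107), and TGFBI, a matrix protein, was called higher (1.93, limma adjusted p = 0.00101), among 4 tested genes. Over all genes 9.86% were called lower and 17.9% higher. The part of TGFβ signals in the rise of CDKN2B was not tested. With I-BET151 none of 4 was called, and TGFBI was at -0.98 (limma adjusted p = 0.329). With passage none of 3 was called, and SMAD7 and TGFBI were at 0.54 and -0.48.

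CDKN1C lies in an imprinted cluster, and 3 of 6 listed neighbors passed the filter in each comparison. SLC22A18, a membrane transporter gene, was called higher in ePP-β (1.24, limma adjusted p = 0.0293), where CDKN1C rose, whereas IGF2, a growth factor gene, was at -0.02 (95% interval -0.26 to 0.22). Among all genes 17.9% were called higher in ePP-β. With I-BET151, SLC22A18 was at -2.47 and PHLDA2 at -1.74 (limma adjusted p = 0.1 and 0.117), while CDKN1C was at -0.04. With passage none was called, and SLC22A18 and IGF2 were at 0.88 and -0.31.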
